A study of Mus musculus with 12 samples.

Results

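Cell cycle transcripts were followed here as 36 genes: 23 whose products act in G2 phase and mitosis, and 13 whose products act at entry into S phase or in DNA replication. The genes were given as a list of symbols, and all 36 were found among the 55414 Ensembl mouse gene identifiers of the counts table. RNA came from liver and lung of wild-type (WT) C57BL/6J mice, isolated 6 h after surgery and kept in RNAlater. The mice had either CLP (caecal ligation and puncture, a sepsis model in which gut contents leak into the peritoneal cavity) or sham surgery. The 4 groups were lung after CLP, lung after sham surgery, liver after CLP and liver after sham surgery, with 3 libraries each. Mice of all groups were wild type, and age, sex and whether the 3 libraries of a group came from separate mice were not given in the labels, so p-values here speak to the spread among these libraries alone, which may be technical.

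A dividing cell licenses its replication origins in G1, copies its DNA in S phase and then separates the chromosomes in mitosis. E2F factors, freed when cyclin-dependent kinases phosphorylate the retinoblastoma proteins, switch on the S-phase genes, while the mitotic genes peak later under the MuvB complex with MYBL2 and FOXM1. In quiescent cells the DREAM complex, built on MuvB, E2F4 and the RB-like proteins, holds both sets down. Most cells of an adult lung or liver are quiescent, and among blood-forming cells it is the precursors in the bone marrow that cycle, while mature neutrophils do not.

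The total count per library ran between 11298109 and 13590527 in CLP lung, between 11946233 and 12931365 in sham lung, between 10559895 and 13780640 in CLP liver, and between 12060375 and 15854117 in sham liver. The 6 hepatocyte markers summed to at least 73477 CPM (counts scaled to the size of the library) in every liver library and to at most 146.6 CPM in every lung library, and the 8 markers of lung capillary endothelium summed to at least 3325 CPM in every lung library and at most 184.7 CPM in every liver library. CPM values below are scaled with edgeR's TMM factors within each organ. They are not divided by transcript length, so levels are compared between groups and not between genes. A gene is called higher or lower where edgeR's quasi-likelihood test gave a Benjamini-Hochberg adjusted p below 0.05 over all genes tested in that organ.

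In lung, 22 of the 23 mitotic genes were higher after CLP than after sham surgery, and none was lower. The count of lower genes was also 0 with edgeR at an unadjusted p below 0.05. It was 0 with DESeq2 or limma-voom at an adjusted p below 0.05. Of all 15441 genes tested in lung, 23.9% were called higher and 24.9% lower, 48.9% in either direction. The median log2 fold change of the 23 mitotic genes was 1.56, against -0.03 over all genes tested, and the called genes ran from 1.53-fold (Kif23) to 5.22-fold (Ccnb1). The values of the CLP and sham libraries did not overlap for the same 22 genes, where CLP lay above sham in every pair of libraries for 28.6% of all genes tested. The exception was Bub1, a kinase of the spindle checkpoint. Among the S-phase genes, 3 of 13 were higher and 2 were lower, and their median log2 fold change was 0.17. In bulk tissue, more cells of a cycling type and more RNA per cell cannot be told apart.

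**Figure D1:**
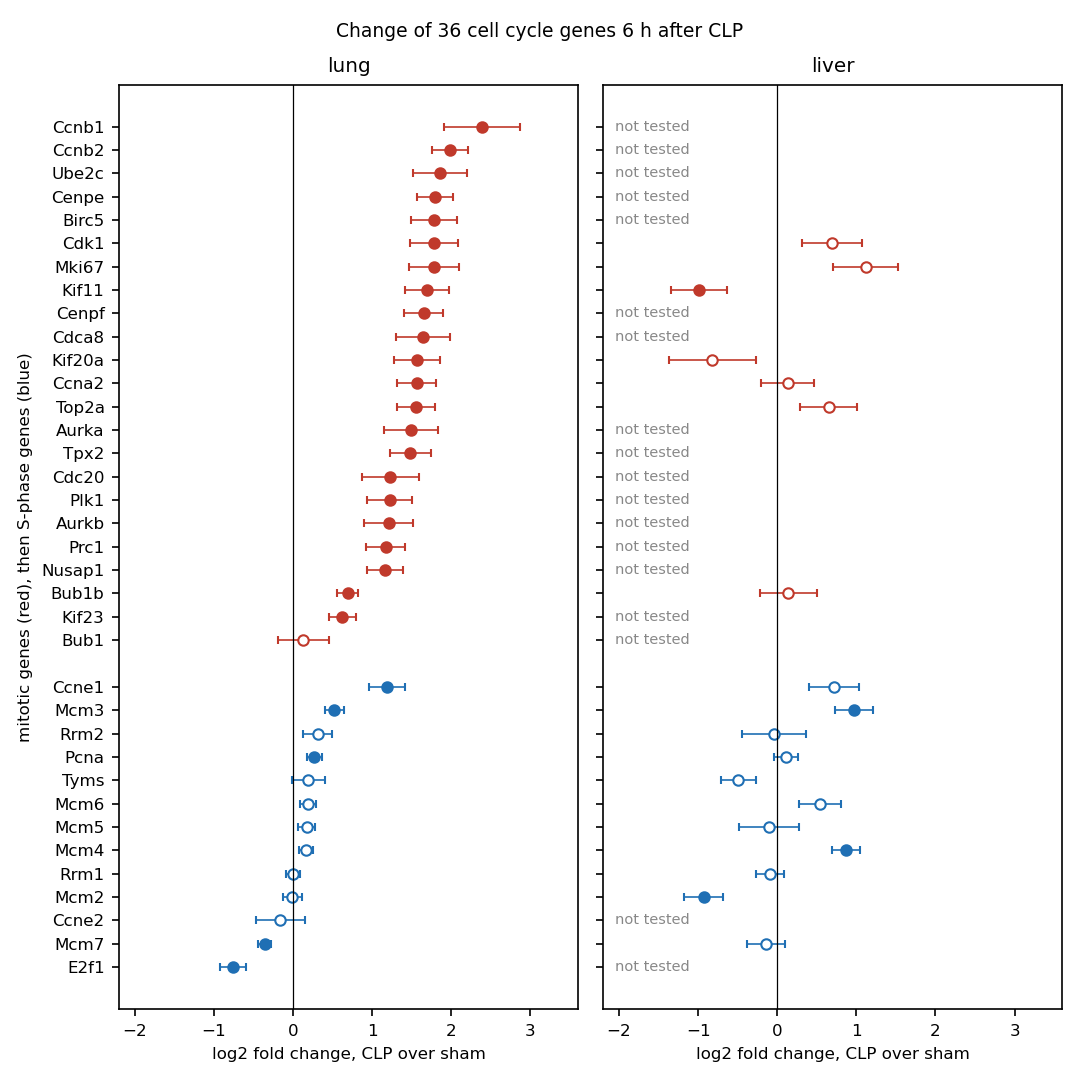
Log2 fold change (CLP over sham, edgeR) of the 23 mitotic genes (red) and the 13 S-phase genes (blue) in lung (left) and liver (right), with its standard error. Filled points passed an adjusted p of 0.05, open points did not, and genes marked as not tested were removed by the low-count filter; in lung 22 red points are filled and lie right of 0, and in liver 7 mitotic genes could be tested.

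The kinase at the centre of mitotic entry and its cyclins were among the genes that rose in lung. Cdk1, the mitotic cyclin-dependent kinase, had 12.9, 6.56 and 6.65 CPM in CLP lung, against 2.60, 2.25 and 2.76 CPM in sham lung (log2 fold change 1.78 ± 0.30, SE; edgeR adjusted p = 0.00205). Ccnb1, which encodes the B-type cyclin that activates it, had 5.13, 1.86 and 2.28 CPM in CLP lung, against 0.407, 0.674 and 0.672 CPM in sham lung (2.39 ± 0.48; adjusted p = 0.00424). All 3 CLP libraries lay above all 3 sham libraries for both genes, and the first CLP library stood above the other CLP libraries. Ccnb2, another B-type cyclin, had 11.6, 7.12 and 9.19 CPM in CLP lung, against 2.68, 2.32 and 2.09 CPM in sham lung, and had the lowest adjusted p of the mitotic genes (1.98 ± 0.23; adjusted p = 0.000331). Ccna2, cyclin A2, which acts in S and G2 phase, had 15.4, 11.4 and 8.19 CPM in CLP lung and 4.31, 3.37 and 4.26 CPM in sham lung (1.56 ± 0.25; adjusted p = 0.00138). Again no CLP library overlapped a sham library.

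Proliferation markers and chromosome-bound proteins rose as well. Mki67, which encodes the Ki-67 protein that coats mitotic chromosomes, had 72.3, 38.7 and 30.2 CPM in CLP lung, against 12.8, 14.6 and 13.7 CPM in sham lung (1.78 ± 0.32; adjusted p = 0.00343). Top2a, the topoisomerase that untangles replicated DNA, had 49.9, 31.3 and 28.2 CPM in CLP lung, against 11.6, 10.8 and 14.9 CPM in sham lung (1.55 ± 0.24; adjusted p = 0.00156). Birc5, or survivin, a part of the chromosomal passenger complex with aurora kinase B and borealin, had 9.96, 5.58 and 5.83 CPM in CLP lung and 1.79, 1.87 and 2.54 CPM in sham lung (1.78 ± 0.29; adjusted p = 0.00154). The other genes of that complex on the list also rose, Aurkb 2.31-fold and Cdca8, which encodes borealin, 3.12-fold. The kinetochore motor Cenpe had 12.1, 8.42 and 7.47 CPM in CLP lung, against 3.01, 2.55 and 2.54 CPM in sham lung (1.79 ± 0.23; adjusted p = 0.000502). Cenpf, a large kinetochore protein, had 8.63, 5.99 and 5.37 CPM in CLP lung, against 1.95, 2.55 and 1.87 CPM in sham lung (1.65 ± 0.25; adjusted p = 0.0011). The first CLP library was highest for each of these genes, and each CLP library lay above the sham range.

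The remaining mitotic genes cover spindle motors, spindle assembly, cytokinesis and mitotic exit. Among the kinesins, Kif11, which pushes the spindle poles apart, was 3.22-fold higher in CLP lung, Kif20a was 2.97-fold higher and Kif23 was 1.53-fold higher; Kif20a and Kif23 act in cytokinesis. The spindle assembly genes Tpx2 and Nusap1 were 2.79-fold and 2.23-fold higher, and Prc1, which bundles the microtubules of the central spindle, was 2.25-fold higher. The kinases Aurka and Plk1 were 2.81-fold and 2.33-fold higher. Of the genes around the anaphase-promoting complex, Ube2c, its E2 enzyme, was 3.63-fold higher and Cdc20, its activator, 2.35-fold higher. The spindle checkpoint genes differed from each other: Bub1b was 1.62-fold higher (adjusted p = 0.00308), while Bub1 had 5.91, 3.64 and 3.28 CPM in CLP lung, against 3.98, 2.55 and 5.23 CPM in sham lung, with a log2 fold change of 0.13 ± 0.32 (adjusted p = 0.757). The Bub1 values of the CLP and sham libraries overlapped. The calls of Cdc20 and Kif23 were the least firm of the 22, since Cdc20 lost its call without any one of the sham libraries (highest adjusted p = 0.0765) and Kif23 without the first or the second (highest adjusted p = 0.0608).

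**Figure D2:**
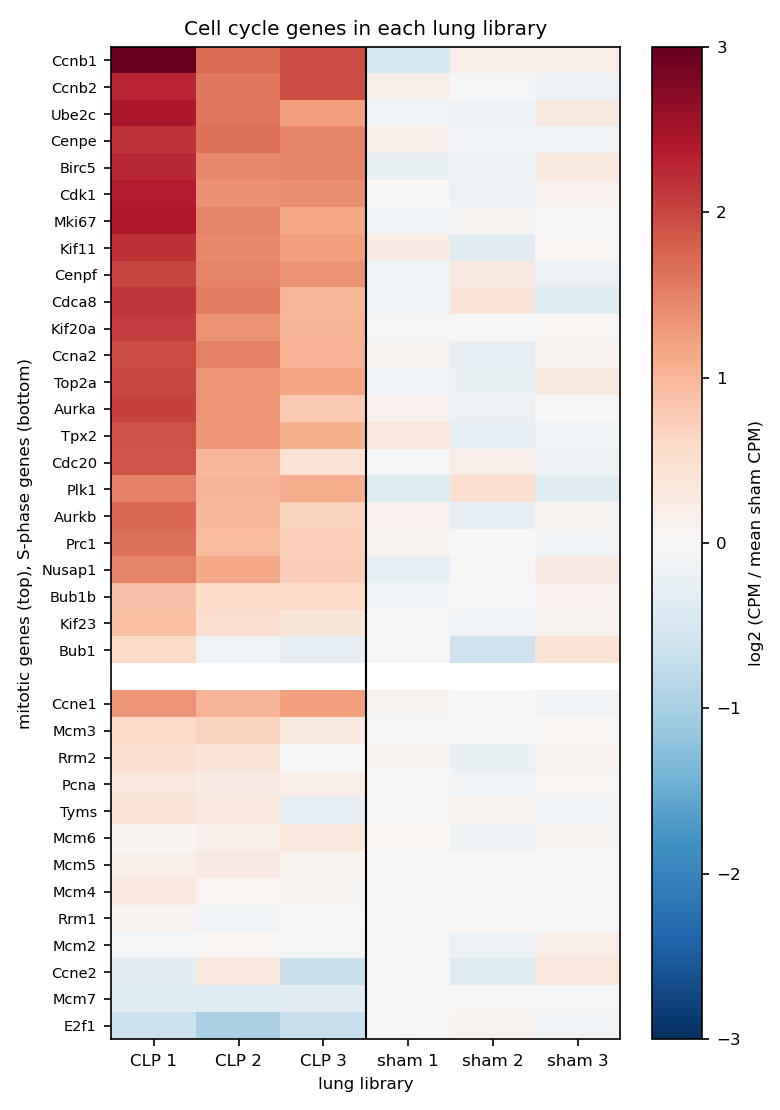
Log2 of each lung library's CPM over the mean of the 3 sham lung libraries, for the mitotic genes (top) and the S-phase genes (bottom), with the CLP libraries left of the line and the sham libraries right of it. The first CLP library is the reddest column for all 23 mitotic genes, with a median of 4.07 times the sham mean, against 2.56 and 2.1 times in the other CLP libraries.

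The 3 CLP lung libraries differed in how far the mitotic genes rose. The first CLP library had the highest CPM of the 3 for 23 of 23 mitotic genes, and the third had the lowest for 18. Over the 23 genes, the median level was 4.07 times the sham mean in the first CLP library, 2.56 times in the second and 2.1 times in the third. Without the first CLP library, 22 mitotic genes were still called higher, with a median log2 fold change of 1.26, of 1.80 for Ccnb1 and of 0.74 for Cdc20. The sum over the 23 mitotic genes was 361.1, 224.2 and 194.2 CPM in CLP lung, against 95.8, 93.2 and 102.3 CPM in sham lung, a ratio of the means of 2.68. Without Mki67 and Top2a, the largest terms of that sum, the ratio was 2.48. On library totals with no TMM factor, the sum was between 188.8 and 341.6 CPM in CLP lung and between 96.28 and 106.6 CPM in sham lung.

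Promoter sequences show what the mitotic genes share beside their change in lung. RefSeq promoter windows of GRCm38.p6, from 250 bases before to 50 bases after a transcript start, were found for 30 of the 36 genes (19 mitotic and 11 S-phase; Aurkb, Ccna2, Ccne2, Kif20a, Mcm4 and Tpx2 had no entry). Both strands were searched for the CHR element (cell cycle genes homology region, TTTGAA or TTTAAA), the CCAAT box (CCAAT) and E2F motifs (TTTCCCGC, TTTGGCGC, TTTCGCGC or TTTGCCGC). MuvB complexes bind CHR elements, NF-Y binds CCAAT boxes and E2F factors bind the E2F motifs. The 150 bases before the start are given 5′ to 3′ on the gene's strand for 5 mitotic and 2 S-phase genes, chosen to show mitotic promoters with different arrangements of motifs, the gene that did not pass the test in lung (Bub1), a replication gene with E2F motifs (Mcm6) and the S-phase gene that fell most in lung (E2f1). Capitals mark the motifs, on either strand.
Ccnb1: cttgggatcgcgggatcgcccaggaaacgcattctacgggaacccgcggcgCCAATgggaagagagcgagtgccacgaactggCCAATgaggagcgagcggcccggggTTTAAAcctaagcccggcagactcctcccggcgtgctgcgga
Cdk1: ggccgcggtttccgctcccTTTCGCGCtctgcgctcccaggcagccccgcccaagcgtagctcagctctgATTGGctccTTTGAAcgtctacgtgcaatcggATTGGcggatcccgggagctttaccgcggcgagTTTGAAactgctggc
Plk1: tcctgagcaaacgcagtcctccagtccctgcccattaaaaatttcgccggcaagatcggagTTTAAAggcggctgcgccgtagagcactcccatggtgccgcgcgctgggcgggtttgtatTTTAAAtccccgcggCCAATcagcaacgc
Ube2c: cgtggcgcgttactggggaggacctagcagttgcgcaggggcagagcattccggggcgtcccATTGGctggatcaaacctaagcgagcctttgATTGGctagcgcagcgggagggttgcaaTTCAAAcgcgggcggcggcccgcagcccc
Bub1: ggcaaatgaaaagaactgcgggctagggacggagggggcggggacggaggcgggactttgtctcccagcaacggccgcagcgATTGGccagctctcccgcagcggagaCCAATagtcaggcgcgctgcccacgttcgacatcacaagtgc
Mcm6: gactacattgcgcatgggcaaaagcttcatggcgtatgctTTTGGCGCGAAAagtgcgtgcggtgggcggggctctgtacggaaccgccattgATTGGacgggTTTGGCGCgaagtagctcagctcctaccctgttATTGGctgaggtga
E2f1: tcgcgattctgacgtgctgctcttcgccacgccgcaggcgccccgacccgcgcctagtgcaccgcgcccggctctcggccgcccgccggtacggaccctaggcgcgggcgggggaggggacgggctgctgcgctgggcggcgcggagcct

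These windows lie at chr13:100786487-100786636 (minus strand) for Ccnb1, chr10:69352913-69353062 (minus strand) for Cdk1, chr7:122159285-122159434 (plus strand) for Plk1 and chr2:164769779-164769928 (plus strand) for Ube2c. The others lie at chr2:127831860-127832009 (minus strand) for Bub1, chr1:128359706-128359855 (minus strand) for Mcm6 and chr2:154569427-154569576 (minus strand) for E2f1. In Ccnb1, 2 CCAAT boxes stand before a TTTAAA element whose first base lies 42 bases before the start, and in Plk1 a CCAAT box stands between a TTTAAA element and the start. Cdk1 holds an E2F motif, 2 CCAAT boxes on the other strand and 2 TTTGAA elements. Bub1 holds 2 CCAAT boxes and no CHR element. Mcm6 holds E2F motifs and CCAAT boxes, of which 1 pair of E2F motifs overlaps on opposite strands. E2f1 holds none of the motifs in these bases. However, part of the E2f1 window can be read as codons of the E2F1 protein, so this listed start appears to lie inside the gene. The lack of motifs there does not describe the promoter of E2f1. Only the window at this listed start was searched, so motifs at any other start of the gene were not tested.

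Over the whole 300-base windows, a CHR element was found for 17 of 19 mitotic genes and for 4 of 11 S-phase genes; by window, 90% of the mitotic and 33.3% of the S-phase windows held one, against 27.6% of all 32851 windows of the table. The mitotic genes without one were Bub1 and Nusap1, and Nusap1 rose in lung. A CCAAT box was found for 17 of 19 mitotic and 8 of 11 S-phase genes, or 90% and 75% of their windows, against 37.4% of all windows, and 2 or more for 55% of the mitotic and 41.7% of the S-phase windows, against 11.7% of all. An E2F motif was found for 1 of 19 mitotic genes, Cdk1, and for 4 of 11 S-phase genes, or 5% and 33.3% of their windows, against 2.26% of all windows. TTTAAA reads the same on both strands and was counted once, and a CHR element overlapped a CCAAT box in Cdca8, an E2F motif a CCAAT box in Mcm7, and E2F motifs or CCAAT boxes their own kind in Mcm5, Mcm6 and Ube2c. These are matches of letters at the listed starts alone, so a gene counted without a motif may hold one at another start. That holds above all for E2f1, counted among the S-phase genes, whose listed start appears to lie inside the gene. Binding was not measured.

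The S-phase genes of lung did not move as a block. Ccne1, cyclin E1, which drives the step from G1 into S phase, had 3.03, 2.43 and 2.82 CPM in CLP lung, against 1.30, 1.20 and 1.12 CPM in sham lung (log2 fold change 1.19 ± 0.23; edgeR adjusted p = 0.00331). Mcm3, a subunit of the MCM2-7 helicase that opens DNA at origins, had 33.1, 35.1 and 26.7 CPM in CLP lung, against 21.3, 21.8 and 23.1 CPM in sham lung (0.52 ± 0.12; adjusted p = 0.00665). Pcna, the sliding clamp of the replication polymerases, had 32.5, 30.4 and 29.5 CPM in CLP lung, against 26.2, 23.9 and 26.8 CPM in sham lung (0.27 ± 0.09; adjusted p = 0.0365). The 3 genes did not overlap between the groups, a separation that held with CLP above sham for 28.6% of all lung genes tested. The Pcna call held under 5 of 14 alternative settings, with an adjusted p of up to 0.171.

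Mcm7 and E2f1 were lower in CLP lung. Mcm7, another helicase subunit, had 22.2, 21.9 and 22.4 CPM in CLP lung, against 28.4, 29.2 and 28.0 CPM in sham lung (-0.36 ± 0.08; adjusted p = 0.00637, and 0.0827 when all 12 libraries shared 1 model). E2f1, the transcription factor that activates S-phase genes, had 4.43, 3.56 and 4.28 CPM in CLP lung, against 6.83, 7.41 and 6.57 CPM in sham lung (-0.76 ± 0.16; adjusted p = 0.00552). Every CLP library lay below every sham library for both genes, a separation that held for 31.1% of all lung genes tested.

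The remaining 8 S-phase genes of lung had log2 fold changes between -0.16 and 0.31, with adjusted p values between 0.157 and 0.988. They were the ribonucleotide reductase subunits Rrm1 and Rrm2, the helicase subunits Mcm2, Mcm4, Mcm5 and Mcm6, thymidylate synthase (Tyms) and cyclin E2 (Ccne2). Mcm2 had 15.6, 16.6 and 15.7 CPM in CLP lung and 15.3, 14.3 and 18.5 CPM in sham lung, with overlapping groups. Its log2 fold change was -0.01 ± 0.12 (edgeR adjusted p = 0.958). Mcm4, Mcm5 and Mcm6 had every CLP library above every sham library but were not called. For Mcm6 the nearest libraries had 37.41 CPM (CLP) and 37.26 CPM (sham). Of all 13 S-phase genes, 6 had CLP above sham in every pair of lung libraries and 2 had CLP below. Over all lung genes tested, the shares were 28.6% above and 31.1% below. The sum over the 13 S-phase genes was 270.6, 258.5 and 252.7 CPM in CLP lung, against 241.5, 235.5 and 246.2 CPM in sham lung, a ratio of the means of 1.08, and a log2 ratio of 0.01 on library totals. The ratio of the mitotic to the S-phase sum was 1.33, 0.867 and 0.768 in CLP lung, against 0.397, 0.396 and 0.416 in sham lung, so that every CLP library lay above every sham library.

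**Figure D3:**
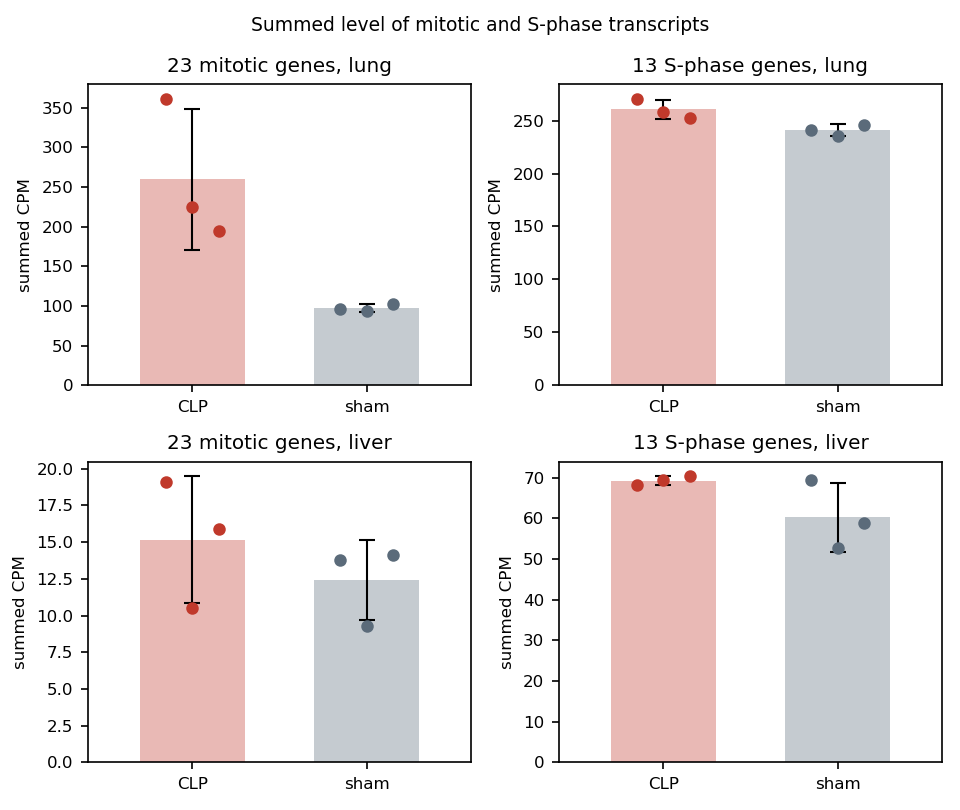
Summed CPM of the 23 mitotic genes (left) and the 13 S-phase genes (right) in lung (top) and liver (bottom), each panel with its own scale from 0. Points are libraries and bars are means ± SD of 3 libraries; in lung the mitotic sum averaged 259.8 ± 89.0 CPM after CLP and 97.1 ± 4.69 CPM after sham surgery, while in liver the CLP and sham libraries overlapped.

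Markers of immature myeloid cells moved in the same lung libraries. The counts of called markers stand beside 23.9% higher and 24.9% lower of all lung genes tested. All 7 tested markers of neutrophil precursors, of 10 listed, were higher in CLP lung, and the 10 markers together summed to 1562, 1620 and 900.3 CPM in CLP lung, against 14.2, 32.5 and 15.5 CPM in sham lung. Mpo, which encodes the primary granule enzyme myeloperoxidase, and Fcnb were at 0 in all 3 sham lung libraries, and no marker of that list was at 0 throughout CLP lung. All 8 markers of mature neutrophils rose and summed to between 6182 and 8691 CPM in CLP lung, against 910.1 to 1050 CPM in sham lung. All 6 monocyte markers rose too and summed to between 604.2 and 830.7 CPM in CLP lung, against 89.3 to 134.1 CPM in sham lung. Of the lymphocyte markers, 5 of 7 T cell genes and 1 of 6 B cell genes were higher; the T cell sum lay between 29.0 and 37.6 CPM in CLP lung and between 11.2 and 17.0 CPM in sham lung, and the B cell sum between 38.0 and 52.8 CPM in CLP lung and between 19.3 and 39.4 CPM in sham lung. Erythroid precursor markers summed to between 42.1 and 56.9 CPM in CLP lung and between 50.0 and 89.8 CPM in sham lung, with 0 of 4 tested genes called higher and 1 lower, and Hemgn was at 0 in all sham lung libraries. Markers of lung capillary endothelium, with 1 of 8 higher and 4 lower, summed to between 3325 and 3941 CPM in CLP lung and between 3862 and 4281 CPM in sham lung. The part of any of these cell types in the mitotic result was not tested.

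Other genes of the mitotic programme, listed separately from the 23, rose in lung for 21 of 35 tested and fell for 1, with a median log2 fold change of 1.06. The summed level of this separate list moved less. It was 400.8, 325.9 and 324.3 CPM in CLP lung, against 310.8, 308.2 and 316.6 CPM in sham lung. The kinase Nek2, which acts at the centrosome, had 24.2, 24.5 and 19.3 CPM in CLP lung, against 10.7, 12.8 and 10.2 CPM in sham lung (1.01 ± 0.14; edgeR adjusted p = 0.000731). Ckap2, a microtubule-bound protein, was 3.81-fold higher (adjusted p = 0.00129). The gene that was lower was Cdc25b, a phosphatase that activates CDK1, with 26.9, 23.4 and 27.4 CPM in CLP lung and 49.99, 48.2 and 48.0 CPM in sham lung (-0.91 ± 0.09; adjusted p = 0.00016). Of 31 further replication genes, 6 were higher and 3 were lower, shares below those of all lung genes tested (23.9% and 24.9%), with a median of 0.04. Mcm10, which helps to activate the helicase at origins, was 3.89-fold higher in CLP lung (adjusted p = 0.000383), and those that were lower included Pold1, the catalytic subunit of DNA polymerase delta (-0.89 ± 0.12; adjusted p = 0.000665), and Gins4 of the GINS complex (-0.45 ± 0.10; adjusted p = 0.00591).

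Of 10 tested inhibitors of cyclin-dependent kinases and retinoblastoma family genes, 3 were higher and 4 were lower in lung, beside 23.9% higher and 24.9% lower of all genes tested. Cdkn1a, which encodes p21, had 513.4, 444.3 and 434.9 CPM in CLP lung, against 173.0, 162.2 and 97.7 CPM in sham lung (1.69 ± 0.21; edgeR adjusted p = 0.000585). Cdkn2d, the INK4-type inhibitor of CDK4 and CDK6 known as p19, had 85.3, 75.3 and 67.1 CPM in CLP lung, against 22.8, 23.1 and 19.6 CPM in sham lung (1.80 ± 0.11; adjusted p = 3.55e-05). Cdkn3, a phosphatase that removes the activating phosphate of CDKs, was also higher (2.80 ± 0.38; adjusted p = 0.000676). Cdkn1b, which encodes p27, had 74.9, 80.7 and 93.2 CPM in CLP lung, against 163.7, 156.9 and 133.8 CPM in sham lung (-0.87 ± 0.11; adjusted p = 0.000511). Cdkn1c, Cdkn2c and the pocket protein gene Rbl2 were lower as well, with log2 fold changes of -0.77, -1.05 and -0.63. The groups of Cdkn1a, Cdkn2d and Cdkn1b did not overlap. Of all lung genes tested, 28.6% were separated with CLP above sham and 31.1% with CLP below.

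All 3 D-type cyclins, which partner CDK4 and CDK6 in G1, were called higher in lung, and the kinases Cdk2, Cdk4 and Cdk6 were not; of all lung genes tested, 23.9% were higher and 24.9% lower. Ccnd2 had 190.2, 169.2 and 216.0 CPM in CLP lung, against 114.5, 121.6 and 126.7 CPM in sham lung (0.67 ± 0.10; edgeR adjusted p = 0.0012), and Ccnd3 was 1.39-fold higher (adjusted p = 0.00366). Ccnd1 was 1.21-fold higher (adjusted p = 0.022), a call that held under 8 of 14 alternative settings. Of 17 transcription regulators of the cycle, 7 were higher and 2, E2f6 and Lin52, were lower, with log2 fold changes of -0.53 and -0.44. Myc had 42.6, 38.3 and 22.6 CPM in CLP lung, against 5.45, 4.12 and 4.78 CPM in sham lung (2.85 ± 0.26; adjusted p = 0.000175), and Mxd1, an antagonist of MYC that shares its partner MAX, was 6.86-fold higher (adjusted p = 9.23e-05). Foxm1, the activator of late mitotic genes, had 7.86, 6.64 and 4.73 CPM in CLP lung, against 2.28, 3.22 and 3.66 CPM in sham lung (1.07 ± 0.25; adjusted p = 0.00887, and 0.059 when all 12 libraries shared 1 model). Mybl2, its partner on MuvB, had 4.12, 3.48 and 3.00 CPM in CLP lung and 2.60, 3.67 and 2.99 CPM in sham lung, with overlapping groups (0.20 ± 0.22; adjusted p = 0.486). Of 16 genes that p53 can induce, 9 were higher and 2 were lower, and Plk3, a stress kinase, was 6.57-fold higher (adjusted p = 0.000208).

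**Figure D4:**
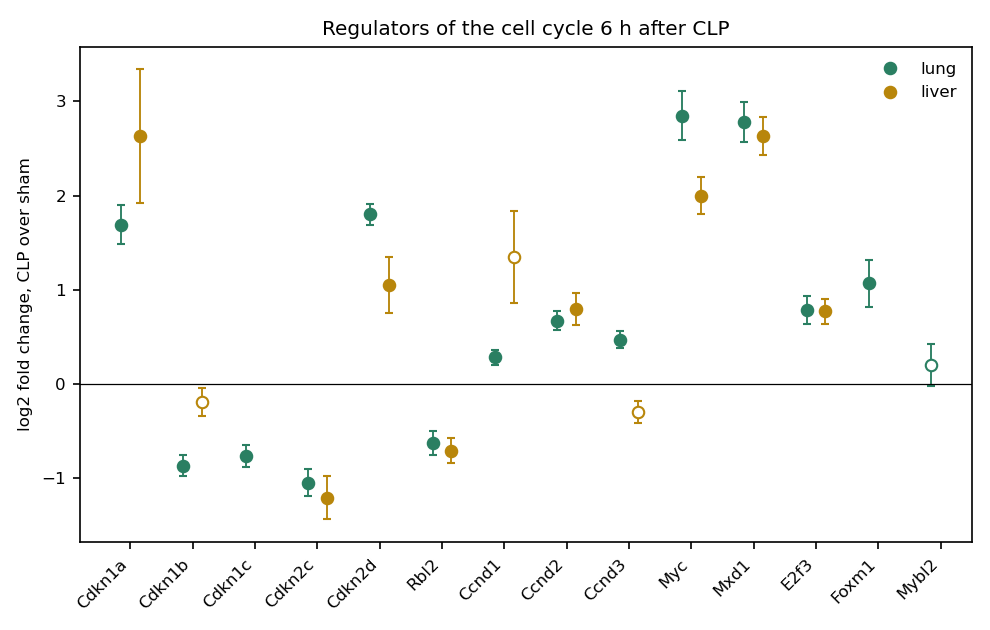
Log2 fold change (CLP over sham, edgeR) with its standard error for CDK inhibitors, Rbl2, D-type cyclins and transcription regulators in lung (green) and liver (ochre); filled points passed an adjusted p of 0.05, open points did not, and a missing ochre point was removed by the low-count filter. Cdkn1a, Cdkn2d, Ccnd2, Myc, Mxd1 and E2f3 are filled and above 0 in both organs.

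In liver the mitotic genes were covered by few reads. The 23 genes had between 0 and 44 counts per library, with medians between 3 and 7 counts in CLP liver and between 4 and 10 counts in sham liver, and 16 of them were removed by the low-count filter. Of the 7 that were tested (Mki67, Top2a, Ccna2, Cdk1, Bub1b, Kif11 and Kif20a), none was called higher and Kif11 was called lower. Mki67 alone was higher at an unadjusted p below 0.05 with edgeR. At an adjusted p below 0.05, DESeq2 and limma-voom called 0 higher, with an adjusted p for Mki67 of 0.0502 and 0.0602. Of all 12392 genes tested in liver, 21.4% were called higher and 21.0% lower, 42.3% in either direction. The median log2 fold change of the 7 was 0.14, against -0.01 over all genes tested. The sum over all 23 was 19.1, 10.5 and 15.9 CPM in CLP liver, against 13.8, 9.27 and 14.1 CPM in sham liver, a ratio of the means of 1.22, and of 1.07 without Mki67 and Top2a. The groups overlapped. With all 12 libraries in 1 model, which kept the 16 filtered genes, Kif23 was called lower in liver and Kif11 was not.

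Mki67 had 3.39, 1.69 and 1.85 CPM in CLP liver, against 1.46, 0.593 and 1.14 CPM in sham liver, so that the CLP libraries lay above the sham libraries (log2 fold change 1.12 ± 0.41; edgeR adjusted p = 0.0537). Such a separation held for 28.1% of all liver genes tested. Of the 23 mitotic genes, filtered ones included, 3 had CLP above sham in every pair of liver libraries and 2 had CLP below. Mki67 passed the threshold under 3 of 14 alternative settings: without the low-count filter (adjusted p = 0.014), with the replicate number as a block (0.0249) and without the second CLP library (0.0392). Top2a had 2.85, 1.77 and 2.46 CPM in CLP liver, against 1.60, 0.815 and 2.04 CPM in sham liver, with overlap (0.65 ± 0.36; adjusted p = 0.181). Cdk1 had 1.46, 0.963 and 1.54 CPM in CLP liver and 0.727, 0.519 and 1.14 CPM in sham liver, again with overlap (0.69 ± 0.38; adjusted p = 0.175). Kif11 had 0.462, 0.722 and 0.513 CPM in CLP liver, against 0.946, 1.33 and 1.14 CPM in sham liver (-0.99 ± 0.35; adjusted p = 0.0483), and its call held under 3 of 14 alternative settings. These values rest on few reads: over 3 libraries, Kif11 had 20 counts in CLP liver and 50 in sham liver, and Ccnb1 had 7 in CLP liver and 1 in sham liver.

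Among the S-phase genes, 11 of 13 could be tested in liver, and 3 were called, a share below the 42.3% of all genes tested. Of the MCM helicase subunits, Mcm3 and Mcm4 were higher and Mcm2 was lower, while Mcm5, Mcm6 and Mcm7 did not pass the test. Mcm3 had 10.5, 9.87 and 9.96 CPM in CLP liver, against 7.42, 4.23 and 3.89 CPM in sham liver (0.97 ± 0.24; edgeR adjusted p = 0.0122). Mcm4 had 12.1, 14.4 and 12.8 CPM in CLP liver, against 8.87, 6.97 and 5.75 CPM in sham liver (0.87 ± 0.18; adjusted p = 0.00522). Mcm2 had 1.85, 1.61 and 2.05 CPM in CLP liver, against 4.29, 3.04 and 3.17 CPM in sham liver (-0.93 ± 0.25; adjusted p = 0.0161). No CLP library overlapped a sham library for these 3 genes, and in liver such a separation held with CLP above sham for 28.1% of all genes tested and with CLP below sham for 27.6%. The Mcm2 call was lost without the first sham library (adjusted p = 0.0506). The other 8 tested genes had log2 fold changes between -0.49 (Tyms) and 0.72 (Ccne1), with adjusted p values between 0.106 and 0.943, and their median with the 3 called genes was -0.04. Pcna had 8.77, 11.9 and 9.34 CPM in CLP liver and 9.09, 9.71 and 9.10 CPM in sham liver (0.11 ± 0.15; adjusted p = 0.603). Ccne1 had 2.31, 3.13 and 3.59 CPM in CLP liver and 2.40, 1.11 and 1.92 CPM in sham liver (0.72 ± 0.32; adjusted p = 0.106). E2f1 and Ccne2 were removed by the filter; E2f1 had 13 counts over the 3 CLP liver libraries and 30 over the 3 sham liver libraries.

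Of 27 replication genes outside the list, 4 were higher and 6 lower in liver, shares near or below the 21.4% higher and 21.0% lower of all genes tested there. Mcm10 had 9.46, 7.46 and 11.4 CPM in CLP liver, against 28.4, 21.4 and 32.2 CPM in sham liver (-1.54 ± 0.20; edgeR adjusted p = 0.000556), and so fell in liver while it rose in lung. Rfc4, a subunit of the clamp loader, was lower (-1.61 ± 0.33; adjusted p = 0.00522), and Fen1, the flap endonuclease that trims Okazaki fragments, had 12.5, 13.4 and 9.96 CPM in CLP liver, against 5.89, 5.78 and 5.09 CPM in sham liver (1.10 ± 0.16; adjusted p = 0.00101). The others called higher were Orc2, Dbf4 and Chaf1b, with log2 fold changes of 0.70, 1.12 and 1.52. Of 15 other mitotic genes tested, 3 were higher (Kif22, 2.50 ± 0.44; Anln, 1.23 ± 0.36; Smc4, 0.42 ± 0.14) and 2 were lower (Smc2, -1.30 ± 0.38; Cenpa, -1.28 ± 0.45). Of these 5, only Kif22, a chromosome-bound kinesin, kept its call under all 14 alternative settings.

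The counts of regulators in liver stand beside 21.4% higher and 21.0% lower of all genes tested. Cdkn1a had 250.8, 231.0 and 144.5 CPM in CLP liver, against 19.6, 71.5 and 10.7 CPM in sham liver (2.63 ± 0.71; edgeR adjusted p = 0.0264), and its call held under 10 of 14 alternative settings. Cdkn2d was 2.07-fold higher (adjusted p = 0.0225), with a call that also held under 10 of 14, and Cdkn2c and Rbl2 were lower (-1.21 ± 0.23 and -0.71 ± 0.13), which makes 2 higher and 2 lower of 7 tested. Ccnd1 had 125.5, 81.6 and 82.4 CPM in CLP liver, against 15.6, 34.0 and 63.7 CPM in sham liver, without overlap but with a wide spread (1.35 ± 0.49; adjusted p = 0.0674), and Ccnd2 was 1.73-fold higher (adjusted p = 0.00627), the 1 of 7 G1 cyclins and kinases called in liver. A lack of overlap with CLP above sham held for 28.1% of all liver genes tested. Of 13 transcription regulators, 5 were higher (Myc 4-fold, Mxd1 6.19-fold, E2f3 1.71-fold, E2f4 1.57-fold, and E2f8 with a log2 fold change of 1.32) and 2 were lower (Tfdp2, -0.81, and E2f6, -0.42). Of 16 genes that p53 can induce, 10 were higher and none lower (1 at an unadjusted p below 0.05 with edgeR), among them the growth arrest genes Gadd45a (8.73-fold; adjusted p = 0.000336) and Gadd45b (8.88-fold; adjusted p = 5.98e-05) and Trp53inp1 (7.71-fold; adjusted p = 0.000368).

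Apart from those of erythroid precursors, markers of blood cells gave lower sums in liver than in lung. The counts of called markers stand beside 21.4% higher and 21.0% lower of all liver genes tested. Neutrophil precursor markers summed to between 20.7 and 38.5 CPM in CLP liver and between 3.26 and 5.63 CPM in sham liver, with Elane, Mpo, Ctsg and Ms4a3 at 0 in all CLP liver libraries. Of the 4 tested, Ngp and Ltf were higher and Cebpe and Prtn3 lower, and Ngp alone had 21.5, 27.7 and 13.8 CPM in CLP liver, against 0.0727, 0.148 and 0.120 CPM in sham liver. Mature neutrophil markers summed to between 543.4 and 613.2 CPM in CLP liver, against 285.9 to 304.5 CPM in sham liver, and all 8 were higher. Monocyte markers, with 4 of 6 higher, summed to between 38.5 and 42.6 CPM in CLP liver, against 12.2 to 15.1 CPM in sham liver. Erythroid precursor markers summed to between 60.1 and 96.7 CPM in CLP liver and between 50.6 and 80.6 CPM in sham liver, and neither of the 2 tested was called. T cell markers summed to between 11.5 and 16.9 CPM in CLP liver and between 3.65 and 10.2 CPM in sham liver, and B cell markers to between 1.23 and 3.05 CPM in CLP liver and between 1.04 and 1.86 CPM in sham liver. Of the T cell markers tested, Cd4 was lower (-1.12 ± 0.36; edgeR adjusted p = 0.0347) and Cd28 did not pass (1.45 ± 0.58; adjusted p = 0.0869), and 1 B cell marker, Cd22, was tested and did not pass. The part of these cells in the liver results was not tested.

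Whether the response to CLP differed between lung and liver was tested with an interaction term fitted to the 12 libraries together, the lung change minus the liver change. The difference was above 0 for 7 of the 23 mitotic genes and below 0 for none (0 at an unadjusted p below 0.05 with edgeR), where 8.89% of all 16111 genes tested had a difference called above 0 and 8.84% below 0, 17.7% in either direction. The 7 were Kif11 (log2 difference 2.65 ± 0.49; edgeR adjusted p = 0.00254), Kif23 (2.18 ± 0.53; 0.0131), Cdca8 (2.20 ± 0.59; 0.0206), Kif20a (2.37 ± 0.63; 0.0206), Ube2c (2.76 ± 0.76; 0.0244), Ccnb2 (2.04 ± 0.58; 0.0283) and Ccna2 (1.40 ± 0.43; 0.0405). The median difference over the 23 was 1.06, against 0.00 over all genes tested. The other 16 had differences between -0.51 (Ccnb1) and 1.52 (Birc5) that did not pass the test, among them Mki67 (0.63; adjusted p = 0.521), so that 16 mitotic genes are not shown to have responded differently in the organs. In the liver test alone, the low-count filter had removed 16 of the 23, a different 16, which entered the 12-library test through their lung counts. Of the 7 that passed, Ccnb2, Kif23, Ube2c and Cdca8 were among those removed, so the liver side of their difference rests on few reads. The count of 7 depended on the liver libraries, whose counts for the mitotic genes are low. It was 3 without the first sham liver library, 4 without the second CLP liver library and 9 without the first CLP liver library. Kif11 and Kif23 passed under all 19 alternative settings, and Ccna2 under 8.

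Of the S-phase genes, Mcm2 had a lung change above its liver change (0.90 ± 0.25; edgeR adjusted p = 0.026) and Mcm4 a lung change below its liver change (-0.74 ± 0.20; adjusted p = 0.0214). Mcm3, which was higher after CLP in both organs, did not pass this test (-0.48; adjusted p = 0.256), nor did Pcna (0.13; adjusted p = 0.676). Outside the 36, Mcm10 had a log2 difference of 3.47 ± 0.32 (adjusted p = 2.12e-05), with lung up and liver down. The inhibitor Cdkn1b had a lung change below its liver change (-0.71 ± 0.19; adjusted p = 0.0222), whereas Cdkn1a (-0.97; adjusted p = 0.45), Cdkn2c (0.13; adjusted p = 0.807), Myc (0.82; adjusted p = 0.124) and Mxd1 (0.12; adjusted p = 0.857) did not pass the test of a difference.

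Reads of some of these genes may not be theirs alone. In the GENCODE M21 annotation of the older build GRCm38, used only for which genes overlap, 9 of the 36 genes have exons that lie opposite those of another coding gene: Ccna2, Ccne2, Cdc20, Cdca8, Kif20a, Mcm7, Nusap1, Prc1 and Ube2c. The library kit keeps strand, but whether the counting used it is not given in the sources used here. Among the other genes named, Ccnd1, Ccnd3, Cdc25b, Fen1, Orc2, Plk3, Rbl2 and Rfc4 lie opposite a coding gene too, and Foxm1 overlaps Tex52 on its own strand.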

How the data were processed

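RNA of 12 libraries was measured by RNA sequencing. Total RNA was isolated with the Aurum Total RNA mini Kit and sequenced on a NextSeq500 from stranded TruSeq libraries, per the labels' protocols. The deposited table holds raw counts, whole numbers with no normalization, for 55414 identifiers. The submitters' processing notes name FastQC, STAR 2.7.10a, featureCounts, DESeq2 and the build mm39, with no order. Not given in the sources used here are the annotation release, the strand setting and how multi-mapping reads were treated.

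Symbols were matched through a GENCODE M21 annotation, which named 52081 identifiers and found 216 of 217 listed symbols (Lin54 was not matched). In each organ, genes were filtered with filterByExpr (minimum count 10, minimum total 15) and tested with edgeR 4.0.16 in R 4.3.3 (TMM factors, robust quasi-likelihood F test, 6 libraries, Benjamini-Hochberg adjustment, threshold 0.05). The lung change minus the liver change was an interaction term over 12 libraries. Standard errors were taken as the absolute log2 fold change over the square root of F. Fitted fold changes use edgeR's default prior count.

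Replicates of a group differed beyond counting noise (chi-square per degree of freedom 5.28 to 37.6), so none was a duplicate. Deviations of libraries sharing a replicate number were weakly correlated. Between lung and liver the correlation was 0.05 to 0.14 after CLP and -0.01 to 0.07 after sham surgery. All 3 libraries correlated best with their own number for lung with liver after CLP, and for CLP with sham in liver. Elsewhere 2 of 3 did. Pairing was therefore not excluded, and the main tests treated the libraries as unpaired. DESeq2 1.42.0, limma-voom (limma 3.58.1), other scalings, no filter, a replicate block, 1 model of 12 libraries and leaving out each library were alternatives. The test was also run on simulated data, with an outcome that is not reported here. Changes were planted only in genes above a minimum mean count, so that run does not cover genes with few reads. Total counts, 10559895 to 15854117, limit the precision of genes with few reads.

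The members and gene lists were chosen with earlier results of these data known. Genes were picked as up to 6 mitotic and 6 S-phase genes with the lowest p among those called in each organ, and 8 preset members. To these were added the 3 genes with the lowest p of each other list, with Cdkn1a, Myc, Foxm1, Mybl2 and Ccnd1. Values per library were given for only some of the picked genes. Others were given as a fold change alone or are not reported. Genes behind a count of 5 or fewer were named after their values were seen, except 1 gene that is not reported here. Promoter sequences are from RefSeq for GRCm38.p6, and no sequence or coordinate of mm39 was used here.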

Additional observations from a re-analysis of the deposited data

Results flagged for a closer look

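Of 81 genes named from the lists and tested for it, 26 had a change after CLP in lung that differed from their change in liver by the test of the difference itself (edgeR quasi-likelihood interaction term, Benjamini-Hochberg adjusted p below 0.05). Many of the 81 were named for a low p in lung or liver, or after their values were seen, so this count is not set against all genes. Values are log2 lung change minus liver change ± SE.

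9 of the list of 36 were among them. The mitotic genes all had a positive difference: Kif11 had 2.65 ± 0.49 (adjusted p = 0.00254), Kif23 2.18 ± 0.53 (0.0131), Cdca8 2.2 ± 0.59 (0.0206), Kif20a 2.37 ± 0.63 (0.0206), Ube2c 2.76 ± 0.76 (0.0244), Ccnb2 2.04 ± 0.58 (0.0283) and Ccna2 1.4 ± 0.43 (0.0405). For Ccnb2, Kif23, Ube2c and Cdca8 the liver side rests on 7 to 34 counts summed over the 3 libraries of a group. Of the MCM helicase genes, Mcm2 had 0.9 ± 0.25 (adjusted p = 0.026) and Mcm4 had -0.74 ± 0.2 (adjusted p = 0.0214).

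Among the other replication and mitotic genes, Mcm10 had 3.47 ± 0.32 (adjusted p = 2.12e-05), Rfc4 1.55 ± 0.37 (0.0123), Cenpa 1.6 ± 0.5 (0.0434), Fen1 -0.72 ± 0.2 (0.0243), Chaf1b -1.42 ± 0.41 (0.0289) and Smc4 -0.55 ± 0.16 (0.0308). Mcm10 and Kif11 were called higher in lung and lower in liver. The liver call held under 14 of 14 alternative settings for Mcm10, but under 3 of 14 for Kif11 (adjusted p up to 0.155). Among the regulators, Ccnd3 had 0.74 ± 0.15 (adjusted p = 0.00503), E2f4 -0.51 ± 0.14 (0.0222), Cdkn1b -0.71 ± 0.19 (0.0222) and Mybl2 -1.7 ± 0.55 (0.0474). The Mybl2 difference passed under 4 of 19 alternative settings (adjusted p up to 0.135) and that of Cdkn1b under 10 of 19 (up to 0.0719), and Mybl2 had 1 to 11 counts in a liver library. Among the genes that p53 can induce, Plk3 had 1.88 ± 0.31 (adjusted p = 0.00142), and the others had negative differences: Trp53inp1 -2.42 ± 0.39 (0.00137), Gadd45a -2.03 ± 0.39 (0.00341), Eda2r -2.63 ± 0.52 (0.00378), Ccng1 -0.81 ± 0.16 (0.00415), Gadd45b -2.09 ± 0.42 (0.00494) and Btg2 -1.94 ± 0.52 (0.0264). Eda2r and Ccng1 were called lower in lung and higher in liver, but the lung calls held under 6 of 14 alternative settings for Eda2r (adjusted p up to 0.121) and 5 of 14 for Ccng1 (up to 0.154).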

How the results depend on the processing

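No result changed direction across the threshold under any alternative run. In lung, 22 mitotic genes were called higher under each of the 8 alternatives that kept all libraries, and 20 to 22 when 1 library was left out. Most other member counts are small, so 1 gene moves them. With all 12 libraries in 1 model, 1 S-phase gene was lower in lung. With library totals alone, 2 S-phase genes were lower in liver, 0 had a difference between organs below 0, the log2 ratio of the S-phase sums was 0.01 in lung and 0.00 in liver, and 1689 of all liver genes were higher. That scaling moved the median gene by -0.10 in lung, -0.20 in liver and 0.12 in the difference between organs, and upper quartile scaling moved it by -0.11 in lung, where the S-phase log2 ratio became 0.00. Without the low-count filter, 1 mitotic gene was higher, 0 were lower and 2 S-phase genes were lower in liver. DESeq2 and limma-voom each called 0 mitotic genes lower in liver. With a replicate block, 1 mitotic gene was higher and 0 lower in liver; same-numbered libraries had correlations of their deviations of 0.02 to 0.09 in lung and 0.05 to 0.17 in liver, where each library correlated best with its own number.

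When each library was left out in turn, lung counts ran from 2 to 3 for S-phase genes higher and stayed at 2 for those lower. Liver counts ran from 0 to 1 for mitotic genes higher, were 0 for mitotic genes lower, 2 for S-phase genes higher and 0 to 2 for those lower. Differences between organs above 0 ran from 3 to 9 for mitotic and 0 to 1 for S-phase genes, and below 0 from 0 to 2 for S-phase genes. Over all genes, lung counts ran from 2952 to 4216 higher and 2668 to 3795 lower, liver counts from 1998 to 2557 higher and 1894 to 2499 lower, and differences from 1062 to 1623 above and 951 to 1424 below 0. The log2 ratio of the mitotic sums ran from 1.11 to 1.63 in lung and 0.09 to 0.50 in liver, and of the S-phase sums from 0.08 to 0.17 in lung and 0.12 to 0.32 in liver. The causes were not tested. Both the 3 libraries a group and the 0 to 44 counts per mitotic gene in a liver library limit the liver results.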
